A study of Mus musculus with 36 samples.

Results

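The genes described here encode the initiation and elongation factors of translation, with their kinases and binding proteins, in ribosome pull-downs and unbound RNA from mouse striatum. Members were taken by name. They are the lines whose gene symbol starts with Eif1 to Eif6 or with Eef1 or Eef2, leaving out symbols that contain -ps. The rule found 68 of 22560 lines with values in the table of 20 libraries and 67 of 22380 in the table of 15, for 66 distinct symbols and 68 Ensembl identifiers. The rule reads symbols and no measured value, but it was set with earlier results of these data known.

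An mRNA is translated in steps that these factors divide among themselves. eIF2 brings the initiator tRNA to the small ribosomal subunit, eIF2B recharges eIF2 with GTP, and kinases that phosphorylate eIF2 alpha stop that recharging, which is the core of the integrated stress response. The cap is bound by eIF4E, which works with the scaffold eIF4G and the helicase eIF4A and is held back by eIF4E-binding proteins when mTOR is inactive. eEF1A then carries each aminoacyl-tRNA to the ribosome, and eEF2, which its kinase eEF2K inhibits, moves the ribosome along. Of the paralogs, Eef1a2 is known as the form of adult neurons and muscle, in contrast to the near-ubiquitous Eef1a1.

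The RNA came from translating ribosome affinity purification, which uses eGFP fused to L10a, a protein of the large ribosomal subunit, to collect ribosomes with their RNA from the cells that express it. The unbound RNA of the same striata was sequenced beside it. In the first set of mice the tag sits behind a stop cassette in the Eef1a1 locus (Eef1a1LSL.eGFPL10a/+), and Cx3cr1CreErt2/+(Litt) with tamoxifen at 4 to 6 weeks of age switches it on in microglia. All of these mice also carried Camk2a-tTA, a forebrain neuron driver, with TetO-Chrm3 or TetO-Chrm4, designer receptors for clozapine-N-oxide (CNO). They received saline or CNO 2 h before the experiment. Each of saline and CNO has 3 libraries per fraction in the Chrm3 line and 2 in the Chrm4 line. No group received CNO without a designer receptor, so the drug and the receptor cannot be told apart. In the second set the tag is expressed from Drd1-eGFPL10a, in D1 neurons. Its groups are control pull-down (4 libraries), Il34 knockout pull-down (3), control unbound (4) and knockout unbound (4). In this set the source label gives Il34-/- in controls as well, and Drd1-Cre stands in the knockout labels alone. The labels do not say whether libraries are separate animals, so p-values measure the spread between libraries, which may be partly technical.

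The unit is RPKM, in which the authors scaled reads by gene length and library size. Depth in genes was 12097285 to 108589514 reads in the table of 20 and 11281757 to 41107736 in the table of 15. The pull-downs matched their labels. In the saline microglial libraries 14 of 14 microglial markers were higher than in unbound RNA, with summed levels of 7424 to 10886 RPKM against 56.7 to 75.8. Of 8 neuron markers, 7 were lower there and 1 higher, the 7 at 0.133 to 0.372 of the unbound level. The sum of all 8 was 935 to 1646 RPKM against 2858 to 4052 in unbound RNA, so neuronal RNA was still present. In the D1 pull-downs 6 of 6 D1 markers were higher than in unbound RNA and 5 of 5 D2 markers lower. As deposited, 84.8% of all genes tested were higher there and 6.84% lower. The D1 marker list was chosen with earlier results of these data known, so its count is a description. In bulk RNA, fewer cells of a type and less RNA per cell cannot be told apart.

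Start-site sequences are shown for the eEF1A and eIF4A pairs, 2 of the 4 families whose paralog balance differs between microglial pull-down and unbound RNA below, for the X-linked and Y-linked copies of eIF2 gamma, and for Eif3f and Eif3l, which with Eef1a1 had the smallest p under CNO in unbound RNA. Many genes of the translation machinery begin transcription inside a run of pyrimidines, known from work on mammalian mRNAs as a terminal oligopyrimidine tract. Each window holds the 20 bases before the annotated RefSeq start (GRCm38.p6) and the 20 bases from it, on the gene's strand. Capitals mark a run of at least 5 consecutive C or T that contains the start base.
Eef1a1: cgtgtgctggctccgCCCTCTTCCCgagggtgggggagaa
Eef1a2: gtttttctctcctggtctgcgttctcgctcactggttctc
Eif4a1: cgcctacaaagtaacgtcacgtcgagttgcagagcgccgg
Eif4a2: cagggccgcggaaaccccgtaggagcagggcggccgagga
Eif2s3x: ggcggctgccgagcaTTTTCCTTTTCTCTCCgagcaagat
Eif2s3y: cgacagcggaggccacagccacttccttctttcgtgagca
Eif3f: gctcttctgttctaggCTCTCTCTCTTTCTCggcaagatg
Eif3l: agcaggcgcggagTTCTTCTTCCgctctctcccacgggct

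The windows lie at chr9:78481705-78481744 (Eef1a1, minus strand), chr2:181156996-181157035 (Eef1a2, minus), chr11:69672404-69672443 (Eif4a1, minus), chr16:23107448-23107487 (Eif4a2, plus), chrX:94212632-94212671 (Eif2s3x, minus), chrY:1010575-1010614 (Eif2s3y, plus), chr7:108934395-108934434 (Eif3f, plus) and chr15:79075203-79075242 (Eif3l, plus). The run was 10 bases long in Eef1a1, 16 in Eif2s3x, 15 in Eif3f and 10 in Eif3l. Of the members' 68 annotated starts, which cover 52 of 66 symbols, 6 held such a run (8.82%), against 3330 of 32851 starts of all genes (10.1%). The 6 belong to Eef1a1, Eif2ak4, Eif2b5, Eif2s3x, Eif3f and Eif3l. A match describes letters at an annotated start and not a regulated mRNA, and a window without capitals says only that no such run covers that base. The rule does not ask that the run begin at the start base. In Eef1a1 and Eif3l that base is a T inside the run. The marked runs are therefore not read as terminal oligopyrimidine tracts.

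Eef1a1 was the most abundant member in all 12 groups, at group means of 186 to 384 RPKM, and made up 7.48% to 17.5% of the summed RPKM of all members. The next in order differed by fraction. Eif4g2, a scaffold relative of eIF4G that lacks the eIF4E-binding part, came second in the 4 microglial pull-down groups, at 165 to 173 RPKM. The helicase gene Eif4a2 came second in the unbound RNA of the same mice, at 165 to 177 RPKM. In D1 control pull-downs Eif4a2 (164 ± 26.5 RPKM, SD, n = 4) and Eif1 (164 ± 9.75) did not differ beyond their spread, and in D1-line unbound RNA Eef2 and Eef1g followed, at 80.6 ± 4.14 and 80.2 ± 4.02 RPKM. At the other end, Eif4e1b and Eif4ebp3 were at 0.682 RPKM or less in every library. Eef2k is on 2 lines, 1 of which is 0 in every library, and is described from the other. Eif4e3 is on 2 identifiers, and the line with most of its reads in the table of 20 (ENSMUSG00000093661) is not among the lines of the table of 15.

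The comparison of microglial pull-down with unbound RNA in saline mice asks how the factors on microglial ribosomes differ from those of the surrounding striatum. With limma on log2(RPKM + 1), 29 of the 64 members tested passed an adjusted p of 0.05, 20 of them higher in microglia and 9 lower, where 65.5% of all 11721 genes tested passed (32.1% higher and 33.4% lower). The gene for the inhibitor eIF4E-binding protein 1, the kinase genes Eef2k and Eif2ak2 and the cap-binding relative Eif4e3 were higher in microglia. Lower there were Eef1a2, Eif5a2, Eif1ax and Eif4a2. The median difference of the members was 0.15 on the log2 scale, against -0.02 for all genes. Quantile scaling put the all-gene median at -0.16 and gave 16 members higher and 19 lower, 25 of them shared with the 29, where 66.8% of all genes passed (27.3% higher and 39.5% lower). The test on recovered reads (limma-voom) gave 20 higher and 11 lower, where 65.7% of all genes passed (31.2% higher and 34.5% lower).

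**Figure D1:**
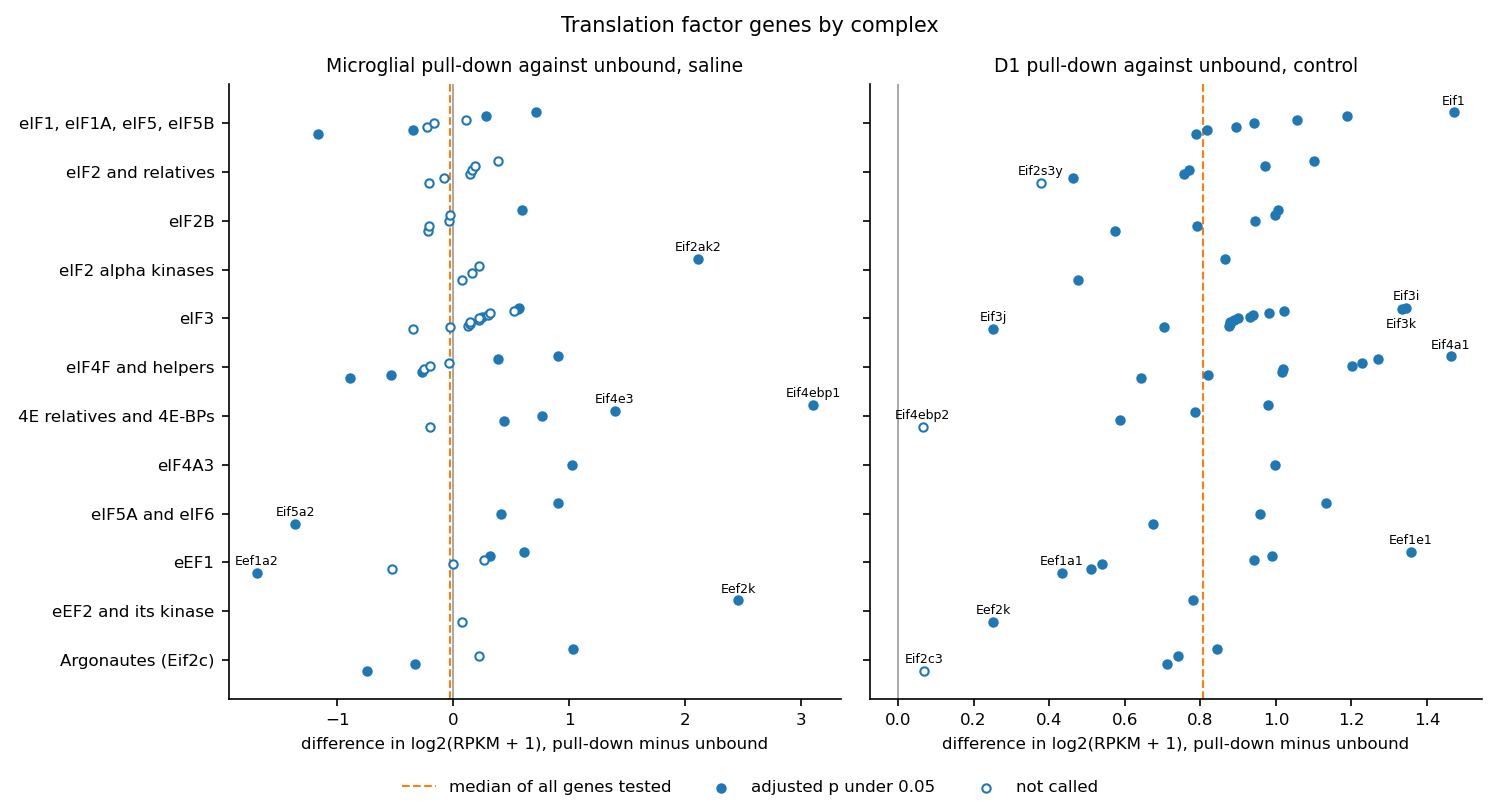
Difference in log2(RPKM + 1) between pull-down and unbound RNA (x axis) for each translation factor gene, in rows by complex, for microglia in saline mice (left) and D1 neurons in control mice (right). Filled points passed an adjusted p of 0.05, and the dashed line is the median of all genes tested, -0.02 on the left and 0.81 on the right. On the left Eif4ebp1, Eef2k and Eif2ak2 lie above 2 and Eef1a2 is lowest at -1.69.

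Among the factors of the preinitiation complex, 4 of 7 passed, 2 in each direction. Eif1ax, the X-linked copy of eIF1A that supports scanning, had 20.4, 20.1 and 20.5 RPKM in the Chrm3 and 25.2 and 26.7 in the Chrm4 pull-downs. In unbound RNA it had 55.2, 53.2, 50.9, 48.7 and 50.3. The groups did not overlap, and Eif1ax fell by 1.17 on the log2 scale (SE 0.10, adjusted p = 7.5e-09). Its paralog Eif1a, in the same role, was also lower (27.8 ± 7.0 against 35.0 ± 4.38 RPKM, -0.35, adjusted p = 0.0292), but its groups overlapped and the call was lost when any of 4 libraries was left out. Eif1ad, an eIF1A-domain gene, was higher (13.05 ± 4.22 against 7.30 ± 0.801 RPKM, 0.71, adjusted p = 0.00192). Eif5b, which joins the subunits, was higher by 0.29 (46.1 ± 2.68 against 37.6 ± 1.56, adjusted p = 0.0102), a call lost with the Chrm4 mice alone (adjusted p = 0.133). Eif1, Eif1b and Eif5 did not pass.

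None of the 6 genes of eIF2 and its relatives passed. Eif2s1, the alpha subunit that the stress kinases phosphorylate, had 38.5 ± 8.55 RPKM in the 5 pull-downs and 33.8 ± 3.34 in the 5 unbound libraries (SD). Of the 5 subunits of eIF2B, only Eif2b4 passed (5.67 ± 2.13 against 3.24 ± 0.414 RPKM, 0.59, adjusted p = 0.0146). The call for Eif2b4 was lost without the 1st Chrm3 saline pull-down (adjusted p = 0.0535) and with quantile scaling (0.0642).

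Of the 4 eIF2 alpha kinase genes 1 passed, and all 4 lay above the median of all genes. Eif2ak2 encodes PKR, the kinase that senses double-stranded RNA. It was at 10.5, 13.4, 14.9, 7.79 and 7.69 RPKM in the saline microglial libraries and at 1.31, 1.46, 2.23, 1.56 and 1.86 in unbound RNA. Every pull-down lay above every unbound library, and the difference was 2.11 (SE 0.18, adjusted p = 6.24e-09). Over all 10 microglial libraries, CNO included, Eif2ak2 ranged from 6.80 to 14.9 RPKM, and over all D1 pull-downs from 0.229 to 0.574. The other kinase genes did not pass: Eif2ak1 (HRI, the haem-regulated kinase) was at 13.5 ± 1.36 against 12.8 ± 0.894 RPKM, Eif2ak3 (PERK, of the endoplasmic reticulum) at 2.33 ± 0.997 against 1.81 ± 0.634, and Eif2ak4 (GCN2, which senses uncharged tRNA) at 1.83 ± 1.01 against 1.41 ± 0.245.

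eIF3 is the large scaffold of the preinitiation complex. Of its 13 genes, 3 were higher and none lower, and 11 lay above the median of all genes. Eif3a, its largest subunit, was at 93.7, 128, 103, 102 and 119 RPKM in pull-down and 72.3, 77.7, 75.1, 59.1 and 81.5 in unbound RNA. The groups did not overlap (0.57, SE 0.11, adjusted p = 0.000156). Eif3j, a loosely bound subunit, was higher by 0.56 (12.7 ± 1.56 against 8.29 ± 1.26 RPKM, adjusted p = 0.00202), and Eif3e was the third.

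The cap-binding complex eIF4F and its helpers passed in both directions, 2 of 8 higher and 3 lower. The opposite movements of the paralogous helicase genes stand out among them. Eif4a1 was at 88.5, 88.5, 69.5, 106 and 80.4 RPKM in the microglial libraries and 46.6, 44.7, 49.7, 43.6 and 42.6 in unbound RNA, a difference of 0.90 (SE 0.10, adjusted p = 3.25e-07). Eif4a2 was at 99.2, 76.0, 104, 86.8 and 85.9 against 163, 160, 181, 159 and 170, a fall of 0.89 (adjusted p = 3.21e-07). Neither pair of groups overlapped. Eif4e, the cap-binding protein itself, was lower (44.4 ± 4.70 against 64.4 ± 2.51 RPKM, -0.53, adjusted p = 2.68e-05), and Eif4b was the third that fell. Eif4g2 was higher (167 ± 7.55 against 128 ± 6.60 RPKM, 0.39, adjusted p = 0.000425). The scaffolds Eif4g1 (10.8 ± 3.04 against 12.8 ± 1.38 RPKM) and Eif4g3 (23.5 ± 2.72 against 24.2 ± 3.32) did not pass, although Eif4g1 was called lower with quantile scaling (-0.42, adjusted p = 0.0146), with voom (-0.34, adjusted p = 0.0450) and without the 2nd Chrm3 saline pull-down (-0.39, adjusted p = 0.0136). Eif4a3, the helicase of the exon junction complex, was at 32.8 ± 3.76 against 15.6 ± 1.52 RPKM (1.02, adjusted p = 8.07e-07).

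The repressors of eIF4E and its cap-binding relatives were higher in microglia in 4 of the 5 tested, and none was lower. Eif4ebp1 (ENSMUSG00000031490, GRCm38 chr8:27260329-27276674, plus strand) encodes the eIF4E-binding protein that mTOR phosphorylates. It was at 13.2, 8.03, 9.81, 17.9 and 10.9 RPKM in pull-down and at 0.770, 0.309, 0.472, 0.0411 and 0.870 in unbound RNA. No library of unbound RNA reached 1 RPKM and no microglial library was under 8.03. The difference was the largest of all members, 3.10 (SE 0.21, adjusted p = 1.07e-10). Since its unbound mean is under the 1 RPKM filter, Eif4ebp1 entered the test through the pull-downs. Over all 7 D1 pull-downs Eif4ebp1 stayed between 0.146 and 0.706 RPKM. Eif4ebp2, the paralog known as the main form of brain, was at 34.5, 25.5, 21.2, 32.1 and 27.4 against 17.8, 16.1, 17.98, 13.8 and 14.4 RPKM. It too was higher without overlap, but by 0.76 (SE 0.13, adjusted p = 2.84e-05). Eif4e3, an atypical cap-binding relative, was at 30.8 ± 11.8 against 10.5 ± 1.82 RPKM (1.39, SE 0.24, adjusted p = 4.13e-05), and Eif4e2 was the remaining gene that passed.

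**Figure D2:**
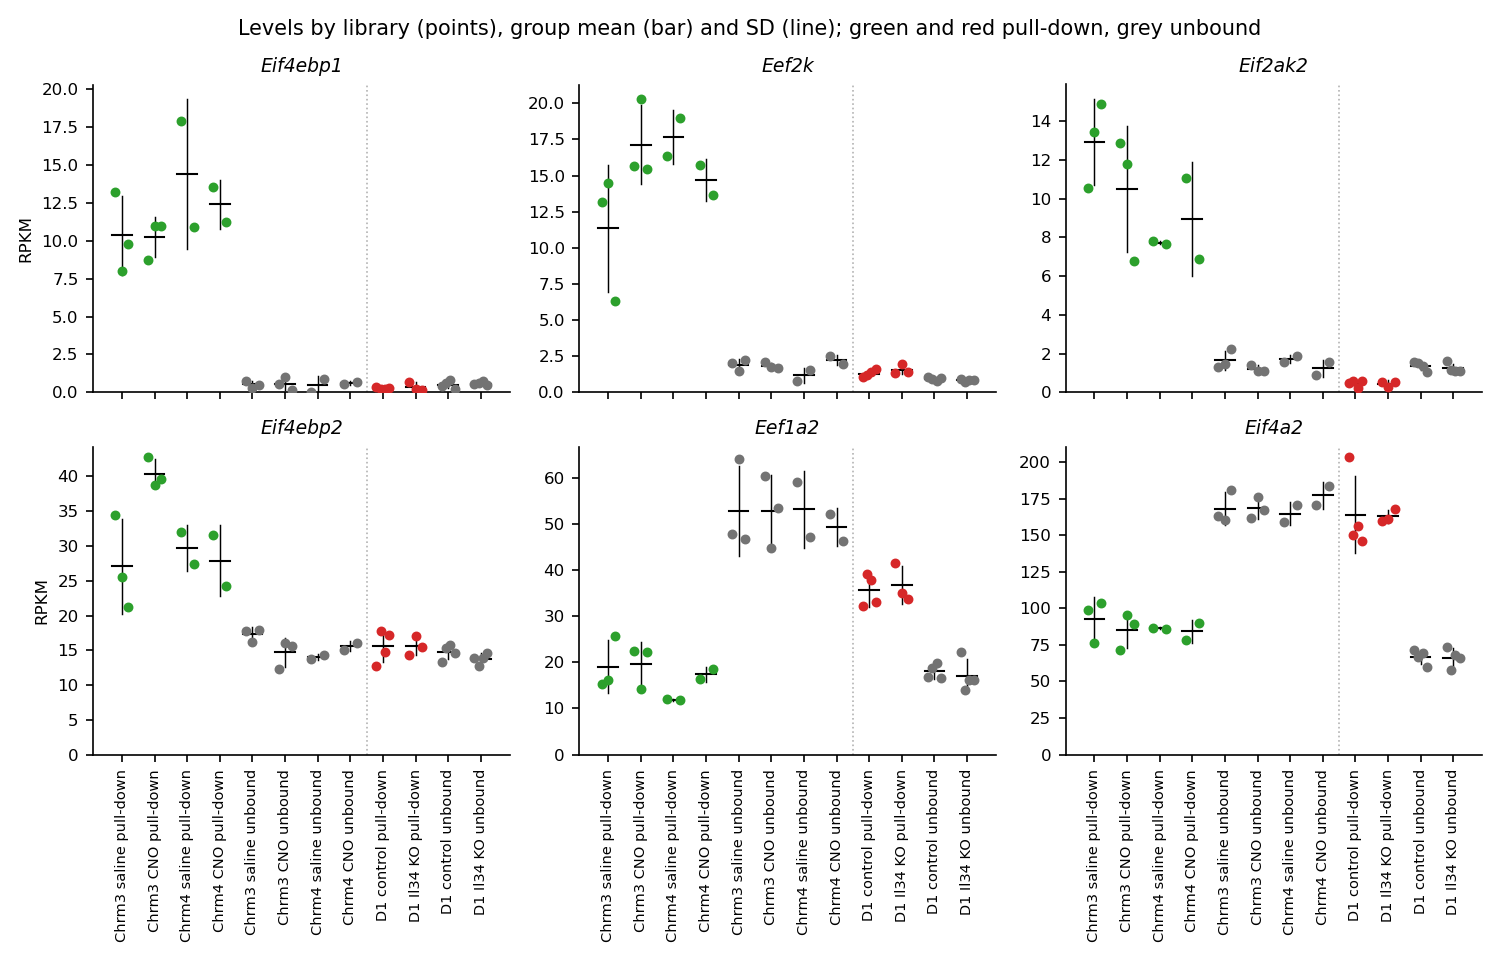
RPKM of 6 members (y axis, linear, from 0) in every library of the 12 groups. Points are libraries, bars group means and lines SD; green marks microglial pull-downs, red D1 pull-downs and grey unbound RNA, and the dotted line parts the tables, which were normalised separately. Eif4ebp1, Eef2k and Eif2ak2 are at 6.33 RPKM or more in every microglial library and at 2.48 RPKM or less in all others.

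Of the elongation factors, the tRNA-carrying eEF1A paralogs went in opposite directions. Eef1a2 was at 15.4, 16.1, 25.7, 12.04 and 11.8 RPKM in microglial pull-down and 47.7, 64.1, 46.8, 59.1 and 47.2 in unbound RNA. It was the member with the deepest fall, 1.69 on the log2 scale (-1.69, SE 0.16, adjusted p = 1.48e-08), without overlap. Eef1a1 was at 289, 267, 338, 257 and 240 against 218, 230, 239, 192 and 228 RPKM, higher by 0.32 (SE 0.098, adjusted p = 0.00744), but with quantile scaling the difference of 0.15 did not pass (adjusted p = 0.195). The L10a tag of these mice is inserted at the Eef1a1 locus in every one of the 20 libraries. What the insertion does to the measured Eef1a1 was not tested. Of the other Eef1 genes, Eef1d was higher (8.67 ± 0.966 against 5.37 ± 0.926 RPKM, 0.61, adjusted p = 0.00238), and Eef1b2, Eef1e1 and Eef1g did not pass.

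Eef2 and its inhibitory kinase differed from each other. The kinase gene Eef2k (ENSMUSG00000035064, chr7:120842831-120907450, plus strand) was at 13.2, 14.5, 6.33, 16.3 and 18.99 RPKM in microglia and 2.03, 1.48, 2.24, 0.788 and 1.55 in unbound RNA. All pull-downs were higher, by 2.46 (SE 0.19, adjusted p = 7.94e-10). Its substrate Eef2 was at 130 ± 14.2 against 123 ± 12.1 RPKM and did not pass.

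eIF5A, which helps ribosomes past stretches such as polyproline, and eIF6, which keeps the subunits apart, passed in all 3 genes. Eif5a2, known to be restricted to brain and testis among normal tissues, was at 9.38, 8.97, 16.4, 14.7 and 6.72 RPKM in microglia and 29.7, 26.4, 27.2, 32.8 and 29.5 in unbound RNA (-1.36, SE 0.18, adjusted p = 2.31e-06). The common form Eif5a was higher (92.3 ± 5.35 against 69.2 ± 6.72 RPKM, 0.42, adjusted p = 0.000585). Eif6 was at 16.8 ± 5.38 against 8.29 ± 1.80 RPKM (0.90, adjusted p = 0.000304), with 1 microglial library, at 9.53 RPKM, inside the unbound range.

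The Argonaute genes match the rule only through their older names Eif2c1 to Eif2c4 and act in RNA silencing, not in initiation. Eif2c1 (Ago1) was higher, at 21.1 ± 1.55 against 9.81 ± 1.10 RPKM (1.03, adjusted p = 9.74e-08). Eif2c3 (Ago3) was lower, at 5.75 ± 0.871 against 10.3 ± 1.77 (-0.74, adjusted p = 0.000259), and Eif2c2 (Ago2) was lower by a smaller step, at 23.4 ± 3.03 against 29.6 ± 2.1 (-0.33, adjusted p = 0.00837). Eif2c4 was not called. With the Chrm3 mice alone Eif2c2 did not pass (adjusted p = 0.103).

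Partner genes of the same pathways were taken from fixed lists, whose counts stand beside the 32.1% of all genes that were higher and the 33.4% that were lower. In the mTOR list 6 of 16 were higher in microglia and 2 lower. Its kinase genes led: Rps6ka1, a ribosomal S6 kinase of the MAPK branch, was at 39.1 ± 8.55 against 1.02 ± 0.267 RPKM (4.30, adjusted p = 2.79e-14), and the eIF4E kinase Mknk1 was at 17.7 ± 2.17 against 2.56 ± 0.596 (2.4, adjusted p = 5.64e-11). Mknk2, the other eIF4E kinase, was higher by 1.39 (adjusted p = 2.72e-07). In the list of the integrated stress response 4 of 10 were higher and 2 lower. The transcription factor Atf4 was at 106 ± 10.0 against 67.3 ± 9.93 RPKM (0.65, adjusted p = 0.000129) and Ppp1r15b, which directs eIF2 alpha dephosphorylation, was higher by 0.87 (adjusted p = 6.15e-05). Asns, asparagine synthetase and a target of ATF4, was lower, at 10.9 ± 1.04 against 28.1 ± 4.31 RPKM (-1.27, adjusted p = 1.73e-05). Poly(A)-binding genes passed 1 of 5 in each direction, with the main binding protein Pabpc1 higher by 0.44 and the inhibitor Paip2b lower (-0.54), the latter not with the Chrm4 mice alone (adjusted p = 0.0852). Of 11 genes for release, recycling and scanning, 2 were higher and 2 lower, among them the helicase Ddx3x at 0.77, the recycling factor Denr at 0.40 and the release factor Gspt2 at -1.52.

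RPKM is scaled by gene length, so paralogs can be compared within a library. Each share below is the RPKM of 1 paralog as a percent of its family. Over 12 share comparisons, exact two-sided permutation tests with Benjamini-Hochberg adjustment passed in 4, all of them in the microglial comparison. There 5 against 5 libraries allow no p under 0.00794, and each of the 4 reached it (adjusted p = 0.0238, exact permutation test). Eef1a2 was 5.39% ± 1.05 of eEF1A RPKM in microglia and 19.3% ± 3.13 in unbound RNA (SD, n = 5 each), a difference of -14.0 percentage points. Eif4a2 was 51.1% ± 5.95 of the Eif4a1 and Eif4a2 sum against 78.6% ± 0.840, or -27.5 points. Eif5a2 was 10.7% ± 3.17 against 29.7% ± 2.26, or -19.0 points. Eif4ebp2 was 70.3% ± 4.78 of the eIF4E-binding protein genes against 96.7% ± 2.03, or -26.4 points. Unlike Eef1a2, Eif4a2 and Eif5a2, the gene Eif4ebp2 was itself higher in pull-down, by 0.76 on the log2 scale. Its share was smaller because Eif4ebp1 was higher by 3.10, from under 1 RPKM in unbound RNA. In all 4 of these shares the libraries of the fractions did not overlap. The part that neuronal RNA still present in the pull-downs has in these shares was not tested. The shares of Eif1b (38.4% against 34.0%, exact p = 0.0397, adjusted 0.0794) and Eif4g3 (68.9% against 65.3%, exact p = 0.127, adjusted 0.139) did not pass. Reads that fit both copies of a pair can be lost or split, and how they were counted is not given in the sources used here.

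In the D1 line, 4 against 4 libraries allow no p under 0.0286. No share passed after adjustment. Eef1a2 was 9.13% ± 0.976 of eEF1A in pull-down against 6.44% ± 0.511 in unbound RNA, higher in 4 of 4 libraries (exact permutation p = 0.0286, adjusted 0.0686). Eif4a2 was 69.4% ± 2.73 against 72.5% ± 0.565 (exact p = 0.0857, adjusted 0.103), with overlap. Eif4ebp2 was 98.3% ± 0.562 against 96.5% ± 1.34 (exact p = 0.0571, adjusted 0.0857).

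The unbound RNA of the 2 sets differed in the Eef1a2 share. It was 16.4% to 23.5% in the saline unbound libraries of the Chrm3 and Chrm4 mice and 5.75% to 6.98% in the unbound control libraries of the D1 line. The values are set side by side without a test. The tables were normalised separately, but a share is taken within a library, so scaling of whole libraries cancels in it. The L10a tag sits at the Eef1a1 locus in the Chrm3 and Chrm4 mice and is expressed from Drd1-eGFPL10a in the D1 line. The part of this difference in the Eef1a2 share was not tested. No share was tested in the other groups. Eef1a2 made up 6.63% ± 0.861 in Chrm3 CNO microglia (n = 3) and 22.03% ± 0.871 in Chrm3 CNO unbound RNA. Eif4ebp2 made up 79.8% ± 2.85 in Chrm3 CNO microglia, against 72.2% ± 3.88 in the Chrm3 saline group. Every Chrm3 CNO library lay above all saline microglial libraries. How often other shares part in this way was not counted, so no CNO response is read from it. The gene Eif4ebp2 itself did not pass there under CNO.

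**Figure D3:**
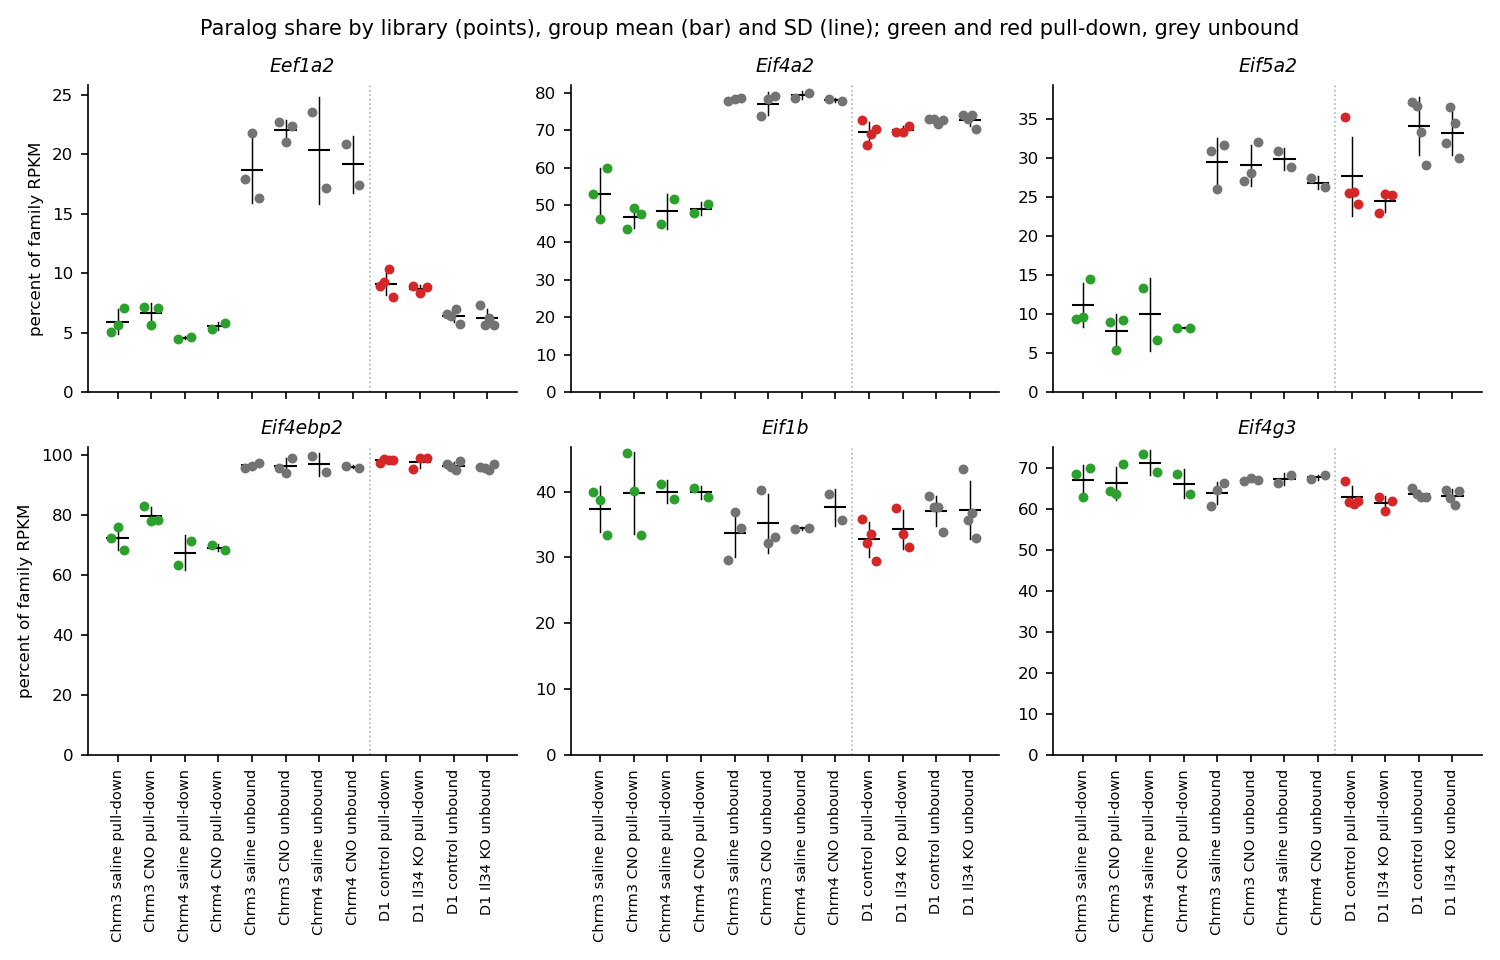
Share of a paralog in the summed RPKM of its family (y axis, percent, from 0) in every library of the 12 groups, for 6 families. Points are libraries, bars means and lines SD; green marks microglial pull-downs, red D1 pull-downs and grey unbound RNA. Eef1a2, Eif4a2, Eif5a2 and Eif4ebp2 take smaller shares in every microglial library than in any unbound library of the same mice.

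The comparison of D1 pull-down with unbound RNA in control mice cannot be read at face value as deposited. There 58 of 61 members tested were higher and none lower, where 91.7% of all 10266 genes passed, 84.8% higher and 6.84% lower. The median of all genes was 0.81 and that of the members 0.89, and 38 of 61 members lay above the median of all genes. The library size implied by the RPKM values, per read in listed genes, was set relative to the median of the pull-downs. It was 1.67 to 1.94 in the D1-line unbound libraries and 0.994 to 1.00 in the pull-downs themselves. The RPKM of all genes summed to 149164 to 169739 in the unbound libraries against 262013 to 273112 in the pull-downs. Quantile scaling moved the median of all genes to 0.10 and gave 15 members higher and 13 lower, where 57.5% of all genes passed (35.2% higher and 22.3% lower). The count test on recovered reads (voom) gave 20 higher and 5 lower at a median of 0.15, where 58.9% of all genes passed (37.7% higher and 21.2% lower). Of the 58 members called as deposited, 25 had the opposite sign with quantile scaling and 15 with voom. Directions are therefore given relative to other genes, for the 12 members higher and 5 lower under both of these scalings. The share of all genes called under both was not counted, so no excess or lack among the members is read from these counts.

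Higher under both were the scanning factor Eif1, the helicases Eif4a1 and Eif4a2, the cap-binding Eif4e with Eif4g1 and Eif4h, Eif3i and Eif3k, Eif2b1 and Eif2b4, Eef1e1 and the Argonaute Eif2c4. Eif1 was at 157, 178, 157 and 162 RPKM in D1 pull-down and 60.0, 60.5, 56.8 and 56.0 in unbound RNA as deposited (1.47, adjusted p = 3.53e-10). It was higher by 0.42 with quantile scaling and by 0.65 with voom. Eif4a1, at 76.7, 77.4, 70.5 and 62.1 against 26.5, 24.7, 27.4 and 22.7 RPKM, had the largest rise of the members under both of them, 0.44 and 0.66. Here both helicase genes stood on the same side: Eif4a2, at 203, 151, 156 and 146 against 71.3, 66.7, 69.5 and 60.1 RPKM, was higher by 0.23 and 0.45. Eif4e was higher by 0.16 and 0.40, and the eIF3 subunits Eif3i and Eif3k by 0.41 and 0.59 and by 0.33 and 0.56.

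Lower under both were Eif4ebp2, Eif2c3, Eef1g, Eef1a1 and Eif3j. Eif4ebp2 was nearly level as deposited, at 12.7, 17.7, 14.8 and 17.2 against 13.4, 15.3, 15.8 and 14.6 RPKM, and lower by 0.85 with quantile scaling (-0.85) and by 0.76 with voom (-0.76). Eef1a1 was at 327, 384, 328 and 382 against 238, 272, 265 and 273 RPKM, higher as deposited (0.43, adjusted p = 0.000482) and lower under both scalings (-0.54 and -0.40). Its partner Eef1g, the gamma subunit of eEF1, was at 115 ± 10.2 against 80.2 ± 4.02 RPKM (0.51) and went the same way (-0.55 and -0.32). Eef1a2, at 35.6 ± 3.48 against 18.03 ± 1.57 RPKM (0.94), had no direction that held: -0.05 with quantile scaling and 0.14 with voom. Eif2c3 was at 5.98 ± 0.928 against 5.68 ± 1.04 RPKM and Eif3j at 4.86 ± 0.456 against 3.94 ± 0.619.

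Eef2k, Eif2ak2 and Eif4ebp1, called higher in microglia, had low levels throughout the D1 line. Eef2k was at 1.02, 1.19, 1.37 and 1.60 RPKM in control pull-down and 1.04, 0.899, 0.783 and 0.965 in unbound RNA. Its small difference (0.25, adjusted p = 0.0180) was 0.02 with quantile scaling and -0.32 with voom. Eif2ak2 was under the filter, at 0.466 ± 0.162 against 1.37 ± 0.230 RPKM, and so was Eif4ebp1, at 0.255 ± 0.0529 against 0.510 ± 0.249. Microglial markers were lower in D1 pull-down in 10 of 10 tested, with sums of 15.7 to 20.7 RPKM against 61.9 to 73.3; their part in the unbound level of these genes was not tested. Of the partner lists, 14 of 15 mTOR genes, 8 of 9 of the integrated stress response, 4 of 5 poly(A)-binding genes and 11 of 11 for release, recycling and scanning were higher as deposited, where 84.8% of all genes were.

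eIF2 gamma has an X-linked and a Y-linked gene in mice, Eif2s3x and Eif2s3y, and only males carry the second. Eif2s3y was under 1 RPKM in 15 of 35 libraries, where its highest value was 0.0821, and between 2.53 and 16.8 RPKM in the rest. Every group held both kinds of library. In 12 of 12 groups, each library without Eif2s3y had more Eif2s3x than any library with it. Pull-down and unbound RNA come from the same striata, so the 12 groups are not independent of each other. Each Chrm4 group has only 2 libraries. In the Chrm3 saline microglia Eif2s3x was at 61.3, 34.7 and 37.4 RPKM, beside 0, 10.4 and 11.6 of Eif2s3y. In D1 control pull-down it was at 33.8, 29.2, 46.5 and 49.3 beside 7.10, 5.25, 0 and 0. The high value is in each case the library with Eif2s3y at 0. Where both were present, the Y-linked copy made up 10.6% to 32.4% of the pair in the table of 20 and 12.7% to 17.4% in the table of 15. Neither gene differed between microglial pull-down and unbound RNA (Eif2s3x 41.0 ± 11.7 against 43.1 ± 10.2 RPKM, adjusted p = 0.742; Eif2s3y adjusted p = 0.750), and the kinds of library are spread over the groups. Reads shared by these near-copies could be assigned to either.

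**Figure D4:**
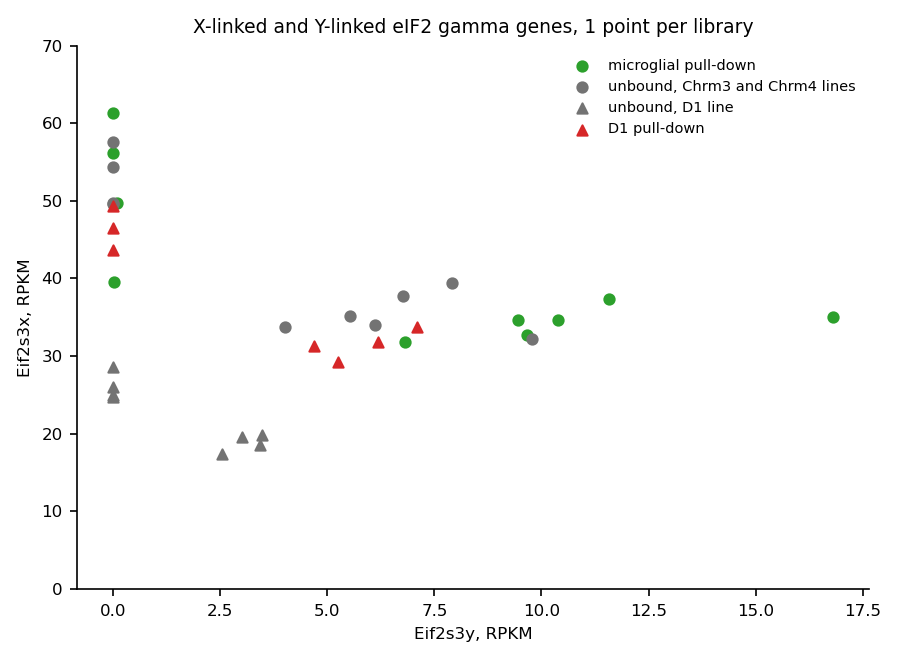
RPKM of Eif2s3x (y axis) against Eif2s3y (x axis), 1 point for each of 35 libraries; circles are the Chrm3 and Chrm4 lines and triangles the D1 line, coloured by fraction. The 15 libraries with Eif2s3y near 0 lie above the others of their own group.

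The CNO comparisons ask whether 2 h of altered neuronal activity moved the factors in microglia or in unbound RNA. No member passed in any of them by limma or by voom on recovered reads. Activity genes did respond in the Chrm3 line, where 5 of 8 passed in microglial pull-down, with sums of 165 to 678 RPKM against 45.6 to 56.9, and 8 of 8 in unbound RNA, with sums of 573 to 2061 RPKM against 140 to 254. None passed in the Chrm4 line.

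In Chrm3 microglia 0 of 64 members passed limma at an adjusted p of 0.05, where 0.0436% of all genes did, and 4 had an unadjusted p under 0.05. The smallest belonged to the repressor gene Eif4ebp2, at 42.8, 38.8 and 39.6 RPKM with CNO and 34.5, 25.5 and 21.2 with saline. The difference was 0.59 (SE 0.20, limma unadjusted p = 0.0114, adjusted 0.764). The CNO libraries of Eif4ebp2 all lay above its saline libraries, but it was picked for its small p. The share of all genes without overlap was not counted. Eif3b, an eIF3 core subunit, was at 16.2 ± 3.31 against 10.3 ± 2.49 RPKM (0.61, unadjusted p = 0.0207, adjusted 0.795), and Eef2k at 17.1 ± 2.75 against 11.3 ± 4.39 (0.62, unadjusted p = 0.0365, adjusted 0.888). Among partners none passed. Ddit4, an inhibitor of mTOR that stress and activity induce, was at 67.3 ± 60.8 RPKM with CNO against 15.8 with saline (1.62, adjusted p = 0.754). Ppp1r15a, the inducible counterpart of Ppp1r15b, was at 5.94 against 1.65 RPKM (1.25, adjusted p = 0.710).

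In Chrm4 microglia 0 of 64 passed, as did 0% of all genes, and no member had an unadjusted p under 0.05. The nearest was the GCN2 gene Eif2ak4, at 2.70 ± 0.420 RPKM with CNO and 1.01 ± 0.308 with saline (SD of 2 libraries each, 0.89, unadjusted p = 0.0523, adjusted 0.999). Eef1a2 was at 17.4 ± 1.61 against 11.9 ± 0.199 and Eif2b2 at 12.97 ± 3.90 against 8.89 ± 0.159 RPKM. The difference between the Chrm3 and Chrm4 responses, which share these libraries, passed for 0 of 64 members and 0% of all genes, with 1 member at an unadjusted p under 0.05 (Eif2ak4, -1.49, unadjusted p = 0.0153, adjusted 0.9996). For Eif4ebp2 that difference was 0.68 (unadjusted p = 0.0509) and for Eef2k 0.87 (unadjusted p = 0.0595).

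**Figure D5:**
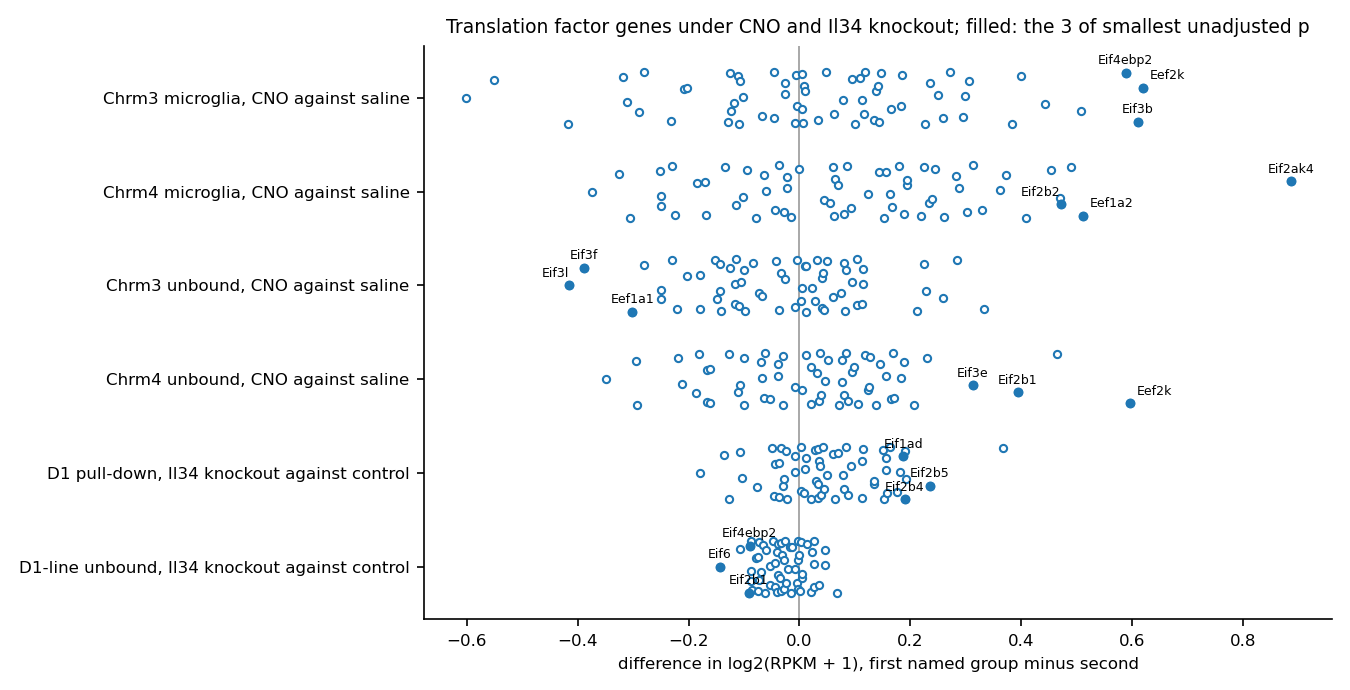
Difference in log2(RPKM + 1) of every member tested (x axis) in 6 comparisons (rows), CNO minus saline or Il34 knockout minus control. Filled and named points are the 3 members of smallest unadjusted p in each comparison, and no member passed an adjusted p of 0.05. The knockout comparisons lie within -0.18 to 0.37 and the CNO comparisons within -0.60 to 0.89.

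In the unbound RNA of the Chrm3 mice 0 of 63 members passed, where 0.701% of all 11123 genes did, and 5 had an unadjusted p under 0.05. The 3 of smallest p were lower with CNO and hold a pyrimidine run over the annotated start base in the windows above. Eif3f was at 21.1, 18.1 and 17.6 RPKM with CNO and 24.3, 23.5 and 27.5 with saline (-0.39, SE 0.12, unadjusted p = 0.00593, adjusted 0.187). Eef1a1 was at 205, 168 and 186 against 218, 230 and 239 RPKM (-0.30, SE 0.10, unadjusted p = 0.0137, adjusted 0.263), and Eif3l at 19.97, 16.2 and 18.1 against 24.3, 22.6 and 26.3 (-0.42, SE 0.15, unadjusted p = 0.0155, adjusted 0.276). In each of the 3 the CNO libraries lay below the saline libraries, but the 3 were picked for their small p. The share of all genes without overlap was not counted, so nothing is read from this. The other members with a pyrimidine run over the start base, Eif2ak4, Eif2b5 and Eif2s3x, had no unadjusted p under 0.05 in this comparison. Since the windows were chosen partly by these p-values, their runs are a description.

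Of the partner genes in Chrm3 unbound RNA, Rheb, the GTPase that activates mTOR, was called higher, at 42.7 against 22.8 RPKM (0.84, limma adjusted p = 0.0393). It was 1 of 15 tested in the mTOR list, where 0.575% of all genes were higher. That call was lost in 5 of the 6 fits that leave out 1 library (adjusted p = 0.0889 to 0.153) and without the filter on low values (0.267). Ddit3, a stress transcription factor, at 11.7 against 7.52 RPKM (0.58, adjusted p = 0.135) and Atf4 at 98.9 against 70.4 (0.48, adjusted p = 0.166) did not pass.

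In Chrm4 unbound RNA 0 of 63 members and 0% of all genes passed, and 1 member had an unadjusted p under 0.05. This was Eef2k, at 2.24 ± 0.349 RPKM with CNO and 1.17 ± 0.537 with saline (0.60, unadjusted p = 0.0202, adjusted 0.916). The CNO libraries here held 106063809 and 108589514 reads and the saline libraries 20537560 and 23634474, a gap in depth whose part in these values was not tested. Eif3e was at 100.1 against 80.8 RPKM (0.31) and Eif2b1 at 9.33 against 6.90 (0.39). For the difference between the Chrm3 and Chrm4 responses in unbound RNA, 0 of 63 members passed where 0.0539% of all genes did (0.036% higher), and 3 members had an unadjusted p under 0.05. The smallest p there belonged to Eif3m (-0.38, unadjusted p = 0.0224), Eif2b1 (-0.57) and Eef2k (-0.63).

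The Il34 comparison asks whether the labelled loss of Il34, a ligand of the microglial receptor CSF1R, changed the factors in D1 neurons or unbound RNA. In D1 pull-down 0 of 62 members passed, where 0.00957% of all genes did, and none had an unadjusted p under 0.05. Eif2b5, the catalytic subunit of eIF2B, was nearest, at 12.4 ± 1.34 RPKM in the knockout (n = 3) and 10.4 ± 1.00 in the control (n = 4), a difference of 0.23 in limma's fit. In unbound RNA 0 of 58 members and 0% of all genes passed, again with no member at an unadjusted p under 0.05, nor a call by voom in either fraction, and Eif6 was nearest, at 3.09 ± 0.520 against 3.50 ± 0.400 RPKM (-0.14). The summed microglial markers were lower in unbound RNA of the knockout, at 29.1 to 59.9 RPKM against 61.9 to 73.3 in the control. No partner gene passed in either fraction.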

How the data were processed

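Deposited values are RPKM, calculated by the authors from striatal TRAP libraries, in tables of 20 and 15 libraries; bcl2fastq, TopHat2 2.1.0, HTSeq 0.6.0, DESeq2 and the build mm9 are named, per the submitters' processing notes, without the role of each, the annotation, gene lengths, strand or treatment of reads with several matches. Columns were joined to samples by their group headings. In the table of 20, 147 of 22707 lines are blank and were dropped. A sample of single nuclei was not analysed here.

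Whole reads were recovered from the smallest steps of the deposited RPKM: counts came out whole within 0.0001 for 99.9447% of 18090 and 100% of 18102 genes above 0 in 2 or more libraries. These depths cover counting error only.

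Differences come from linear models on log2(RPKM + 1) in R 4.3.3 with limma 3.58.1 (eBayes with trend). Genes averaging 1 RPKM or more in the fitted libraries were tested, two-sided, with Benjamini-Hochberg adjustment over all genes tested and a threshold of 0.05. Differences understate the change of low genes. Of 68 lines, 64 were tested in the microglial fraction comparison and 61 of 67 in that of the D1 line. Fraction comparisons used all libraries of a table. CNO comparisons used the 10 libraries of a fraction, so groups of 2 share the spread of all. Paralog shares were tested by exact permutation with scipy 1.17.1. Fits were tested on simulated data. Alternatives were a pseudocount of 0.1, no filter, quantile scaling, voom on recovered reads, each receptor line alone and leaving out each library.

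The members, gene lists and tests were chosen with earlier results of these data known. Named were a fixed set of members, up to 2 called members per complex with the largest rise and up to 2 with the largest fall, if 2 RPKM was reached by either group, the 3 members of smallest p where none was called, and up to 3 partners per list by smallest p. Eif3e, Eif4b and Eif4e2 in the microglial comparison, the members called under both scalings of the D1 comparison, and the partners named in more than 1 comparison were picked with their values in view. Gene positions come from GENCODE on GRCm38 and start windows from RefSeq on GRCm38.p6, not from the authors' annotation.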

Additional observations from a re-analysis of the deposited data

Results flagged for a closer look

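Dixon's test at the 95% level was run on every named member and on each of 6 paralog shares, in every group of 4 libraries. Chance alone flags about 1 in 20 such tests, so flags are expected among so many without any real outlier. It flagged 6 values, in 2 of the groups, where 1 library stood apart from the other 3. Among the Il34 knockout unbound libraries, the highest Eif2ak2 was 1.59 RPKM, the highest Eif1ad was 4.73 and the highest Eif1b was 48.4. Among the D1 control pull-downs, the lowest Eif3a was 74.8 RPKM. In the same group the highest Eif5a2 share of its pair was 35.2% and the highest Eif4g3 share of its pair was 66.8%.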

How the results depend on the processing

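No paired analysis was possible because the columns carry group headings without replicate numbers. In the D1 fraction comparison the count of members called went from 58 to 28 with quantile scaling and 25 with voom. Signs turned there with quantile scaling for Eif4g2 (-0.42), Eef1a2 (-0.049), Eif4ebp2 (-0.85), Eif2c3 (-0.66), Eef2 (-0.28), Eif2s3x (-0.23), Eif2c2 (-0.19), Eef1a1 (-0.54), Eif2c1 (-0.062), Eif5a2 (-0.26), Eef1b2 (-0.053), Eif3a (-0.33), Eif3j (-0.41) and Eef1g (-0.55), and with voom for Eif4g2 (-0.18), Eif4ebp2 (-0.76), Eif2c3 (-0.76), Eef2 (-0.045), Eef2k (-0.32), Eif2s3x (-0.049), Eif2c2 (-0.052), Eef1a1 (-0.40), Eif2c1 (-0.014), Eif5a2 (-0.13), Eif2s3y (-0.41), Eif3a (-0.12), Eif3j (-0.53) and Eef1g (-0.32). Both scalings lower the median of all genes, which moves every difference down. In the microglial comparison only uncalled members turned: Eif2ak1 (-0.092) and Eef2 (-0.033) with quantile scaling, Eif2s3y (-0.49) with voom, Eif4g3 (0.025) and Eif2s3x (0.019) in Chrm3 mice, Eif2ak4 (-0.17) and Eef2 (-0.00629) in Chrm4 mice; the cause was not tested. Its count of members called was 28 to 32 when 1 library was left out.

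Leaving out 1 library gave -0.0081 to 0.31 for Eif2ak4, -0.11 to 0.011 for Eif4g3, -0.23 to 0.028 for Eif2s3x and -0.019 to 0.90 for Eif2s3y in the microglial comparison, and -0.043 to 0.14 for Eif2c3 and -0.16 to 0.85 for Eif2s3y in the D1 comparison. Eef2k and Eif3j each lost their D1 call without either of 2 libraries. The share of Eif1b ran from 3.37 to 5.70 points and was called without the 3rd Chrm3 saline pull-down (exact permutation test, adjusted p = 0.0381), and that of Eif4g3 from 2.41 to 5.05 points, called without the 2nd. In the D1 line a share test with 1 library left out cannot go below an exact p of 0.0571. No alternative called a member under CNO or in the knockout. With the Chrm4 mice alone, Eef1a1, Eif2b4, Eif5b, Eif1a and Paip2b lost their microglial call. What depth does to the calls of members near 1 RPKM was not tested.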
